A study of Mus musculus with 14 samples.

Results

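The NMDA receptor subunit genes Grin1, Grin2a, Grin2b, Grin2c, Grin2d and Grin3a were read by symbol from a table of gene counts of mouse cortex, and all 6 were found among its 23412 genes. RNA-seq measured mRNA, and ribosome profiling measured footprints, the mRNA fragments of about 28 to 34 nucleotides that ribosomes shield from nuclease. Every mouse carried floxed Rpl22 alleles (Rpl22flox/flox) and a CamK-driven Cre (CamKCre+), the Ribotag arrangement in which Cre acting in forebrain excitatory neurons tags a ribosomal protein. Controls had no further label, and knock-out (KO) mice were Fmr1X-Y, without a working Fmr1, which encodes the RNA-binding protein FMRP. RNA came from 4 control mice (1, 3, 6 and 8) and 4 KO mice (2, 4, 5 and 7), and footprints from 3 control mice (1, 3 and 9) and 3 KO mice (2, 4 and 10). The labels give no age, no sex for the controls and no immunoprecipitation of tagged ribosomes, so the libraries stand for all cells of the cortex lysate. In such samples fewer cells of a type and less RNA per cell cannot be told apart.

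NMDA receptors are glutamate-gated cation channels that open when glutamate and a co-agonist, glycine or D-serine, are bound and the membrane is depolarised. Calcium entering through them starts the signalling behind synaptic plasticity. Each receptor is a tetramer that needs GluN1, the Grin1 product, which binds the co-agonist. The glutamate-binding GluN2 subunits, from Grin2a to Grin2d, set the channel's kinetics, and GluN3A, the Grin3a product, lowers calcium permeability. In cortex GluN2B prevails early in life and GluN2A is added after birth, while GluN2C and GluN2D are known mainly from other regions, from glia and from interneurons. Transcripts of several subunits have been reported among those that FMRP binds.

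The labels held for the targeted gene: Fmr1 RNA was 21.7 ± 2.40 CPM in the KO group against 82.9 ± 8.36 CPM in the control group (mean ± SD, n = 4 per group; CPM is the count over the TMM-adjusted library total). Fmr1 footprints in the KO group reached 6.56% of control. Spread between libraries was taken as chi-square per degree of freedom, for which sampling noise alone gives about 1. Pairs among KO mice 2, 4 and 7 in RNA lay at 1.18 to 1.32 and the other 9 RNA pairs of one genotype at 1.99 to 11.8. Footprint pairs lay at 1.15 to 1.42 within a genotype and at 4.83 to 5.92 between genotypes. RNA of KO mice 2, 4 and 7, and footprints within each genotype, were thus nearly identical, and the labels do not say whether these libraries came from separate tissue samples. Summing such footprint libraries would leave 1 per genotype and no test, so the footprint calls rest on this small spread. P-values measure only the spread between these libraries. Markers of excitatory neurons were present in each library, with summed RNA between 2777 and 3043 CPM (control) or 3436 and 3712 CPM (KO). Of the 11 markers 2 were called higher in RNA, Camk2a and Slc17a7, against 3.58% of all genes. In footprints, where 12% of all genes were called higher and 13.7% lower, 3 were called higher and 2 lower, the lower ones being Cux2 and Camk2a (Camk2a at -0.14, adjusted p = 5.96e-10, edgeR). The summed footprints of the list overlapped, at 5765 to 5914 CPM (control) and 5557 to 5839 CPM (KO).

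In footprints, Grin2b, Grin2d and Grin3a fell in KO mice and Grin1 rose slightly. The largest fall was that of Grin2d, to 68.1% of control, followed by Grin3a at 80.1% and Grin2b at 81.2%. Grin1 stood at 105% of control. Grin2a and Grin2c, at 92.0% and 86.3% of control, did not pass the test. Of all 12158 genes tested in footprints, 25.7% were called, 13.7% as lower and 12% as higher. This balance depends on the scaling: 1662 of 3123 calls were lower here, against 1158 of 3438 on plain library sizes. The median log2 fold change of the 6 subunits was -0.26, against 0.0060 over all genes tested.

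In RNA no subunit was called by edgeR, where 7.51% of the 13507 genes tested were called (3.58% higher, 3.93% lower). The libraries of the genotypes overlapped for all 6 subunits, whereas 7.97% of genes were lower and 7.10% higher without overlap. Grin3a had the only unadjusted p-value under 0.05 (0.0108), and DESeq2 called no subunit either. The median log2 fold change of the subunits in RNA was 0.041, against -0.0010 over all genes.

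**Figure D1:**
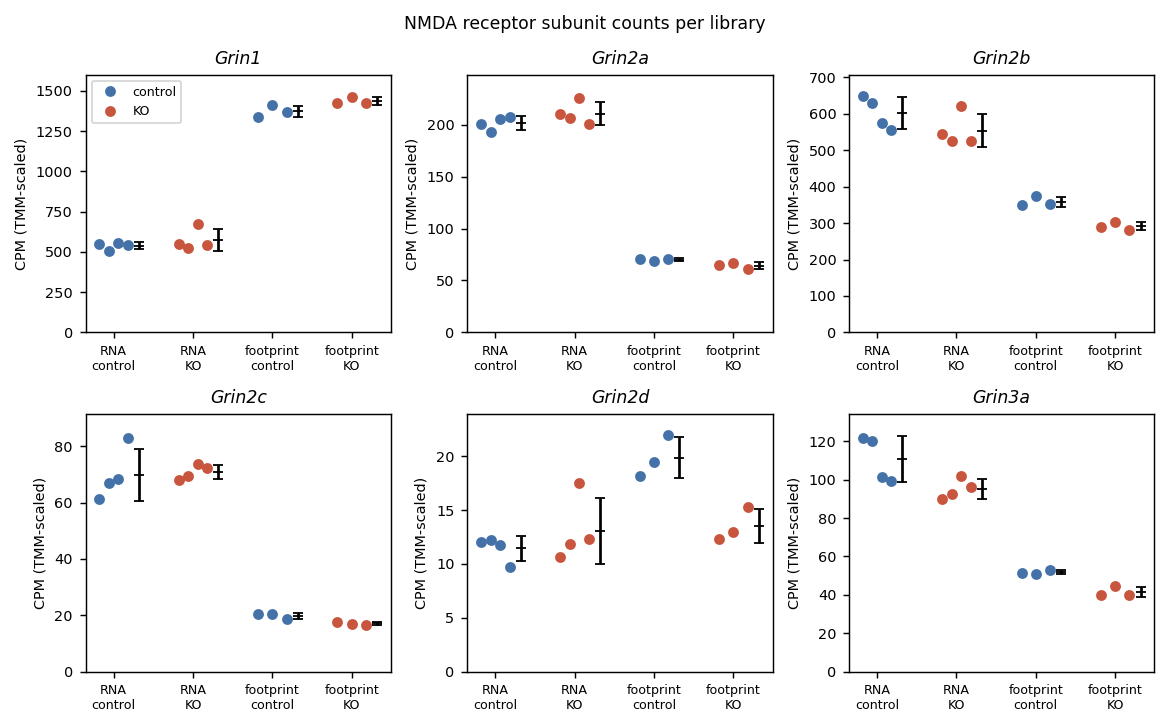
Each panel shows 1 subunit gene, with CPM (linear axis from 0) for every library as points and the mean ± SD beside each group of 4 RNA or 3 footprint libraries. The footprint libraries of KO mice lie below all control libraries for 5 subunits and above them for Grin1 (19.2% and 18.1% of all genes tested), whereas RNA libraries of the genotypes overlap in every panel.

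Grin1 encodes the subunit that all NMDA receptors contain. Its footprints were at 1336, 1409 and 1371 CPM in control mice 1, 3 and 9 and at 1424, 1462 and 1421 CPM in KO mice 2, 4 and 10, from 5662 to 8307 counts per library. Each KO library was above each control library, as it was for 18.1% of all genes tested. The log2 fold change was 0.064 ± 0.022 (SE, adjusted p = 0.0218, edgeR). This small rise was not called with DESeq2 (adjusted p = 0.0837), in one edgeR fit over all 14 libraries (0.612), in mice 1 to 4 alone (0.0714) or without mouse 1 (0.153), 4 (0.137) or 9 (0.0640). On plain library sizes it was 0.12 ± 0.022 (SE, adjusted p = 2.23e-06, edgeR), so its size depends on the scaling.

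Grin1 RNA did not separate the genotypes. It was at 548, 505, 554 and 545 CPM in control mice 1, 3, 6 and 8 and at 551, 526, 675 and 544 CPM in KO mice 2, 4, 5 and 7. KO mouse 5 was above the rest, and the other 3 KO libraries lay within the control range. The log2 fold change in RNA was 0.093 ± 0.073 (SE, adjusted p = 0.483, edgeR). The antisense gene Grin1os overlaps Grin1 in RefSeq and had 0 to 3 RNA counts and 0 footprint counts per library under its older symbol E130003G02Rik.

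Grin2b encodes GluN2B, the subunit with a long cytoplasmic tail that binds CaM kinase II. Its footprints were at 350.3, 375 and 351 CPM in control mice 1, 3 and 9 and at 288, 304 and 281 CPM in KO mice 2, 4 and 10, from 1216 to 2210 counts per library. The genotypes did not overlap, with KO libraries below control libraries, as in 19.2% of all genes tested. The log2 fold change was -0.30 ± 0.036 (SE, adjusted p = 2.26e-11, edgeR). The call held under all 13 alternatives run for footprints, with values from -0.34 to -0.24.

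Grin2b RNA was at 649, 629.9, 575 and 556 CPM in control mice 1, 3, 6 and 8 and at 544, 524, 620.2 and 526 CPM in KO mice 2, 4, 5 and 7. The groups overlapped through KO mouse 5, which lay above 2 controls. Over all mice the RNA log2 fold change was -0.12 ± 0.068 (SE, adjusted p = 0.297, edgeR). It differed between sets of libraries: in mice 1 to 4 alone it was -0.25 ± 0.035 (SE, adjusted p = 6.73e-06, edgeR), and in mice 5 to 8 alone it was 0.020 ± 0.098 (SE, adjusted p = 0.958, edgeR). The difference between these sets was not tested. In mice 5 to 8, KO mouse 7 lay below both controls and KO mouse 5 above both. Without KO mouse 5 the value over all other mice was -0.18 ± 0.057 (SE, adjusted p = 0.0667, edgeR).

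Grin3a encodes the glycine-binding subunit GluN3A. In footprints it stood at 51.5, 51.1 and 53.2 CPM in control mice 1, 3 and 9 and at 40.1, 44.6 and 40.0053 CPM in KO mice 2, 4 and 10, from 169 to 301 counts per library. All KO libraries were lower. The log2 fold change was -0.32 ± 0.086 (SE, adjusted p = 0.00235, edgeR), and all 13 alternatives kept the call, at -0.37 to -0.26.

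Grin3a also had the lowest RNA log2 fold change of the family, -0.22 ± 0.075 (SE, adjusted p = 0.0876, edgeR). Its RNA was at 122, 120.004, 102 and 99.4 CPM in control mice 1, 3, 6 and 8 and at 90.1, 92.7, 102 and 96.2 CPM in KO mice 2, 4, 5 and 7. The high values were those of control mice 1 and 3, while control mice 6 and 8 overlapped with KO mice. Grin3a RNA was called lower without control mouse 8 (-0.27, adjusted p = 0.0184, edgeR), in mice 1 to 4 alone (-0.40, adjusted p = 8.47e-06, edgeR) and in the exon columns (-0.26, adjusted p = 0.00949, edgeR). In mice 5 to 8 alone it was at -0.022 (adjusted p = 0.955, edgeR). The gene Ppp3r2, which lies inside Grin3a in RefSeq, had 0 to 5 RNA counts and no footprint count in any library.

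Grin2d encodes GluN2D, a slowly deactivating subunit known from interneurons and the diencephalon. Footprint levels were 18.2, 19.5 and 21.97 CPM in control mice 1, 3 and 9 and at 12.3, 12.99 and 15.3 CPM in KO mice 2, 4 and 10. No KO library reached the lowest control library. The counts behind these values were low, 52 to 124 per library. The log2 fold change was -0.56 ± 0.14 (SE, adjusted p = 0.00156, edgeR), and the call held under the 13 alternatives, at -0.66 to -0.48. The call came closest to the threshold in one edgeR fit over all 14 libraries (adjusted p = 0.0408) and with DESeq2 (0.0255). Among all genes tested, 2.85% had a lower footprint log2 fold change than Grin2d.

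Grin2d RNA did not pass the test, with a log2 difference of 0.18 ± 0.15 (SE; edgeR adjusted p = 0.501). It was at 12.1, 12.2, 11.7 and 9.74 CPM in control mice 1, 3, 6 and 8 and at 10.6, 11.8, 17.5 and 12.4 CPM in KO mice 2, 4, 5 and 7. KO mouse 5 stood alone at the top, and the remaining KO mice overlapped with the controls. Without KO mouse 5 the RNA difference was 0.027 (edgeR adjusted p = 0.906), and in mice 1 to 4 alone it was -0.10 (0.641). Markers of regions and cells known for Grin2d were read in the same libraries, beside 13.7% of all genes called lower and 12% called higher in footprints. The summed footprints of 9 thalamus markers were 218 to 242 CPM (control) and 191 to 210.4 CPM (KO), with 3 called lower and 6 not called, and their RNA sums overlapped. The 8 hypothalamus markers summed to 114 to 124 CPM and 44.6 to 50.1 CPM, and all 6 of those tested were called lower. Their RNA sums did not overlap either, at 43.6 to 79.2 CPM (control) and 23.7 to 27.5 CPM (KO). Of 7 tested in RNA, 4 were called lower, against 3.93% of all genes. The 10 inhibitory neuron markers summed to 2175 to 2259 CPM and 2415 to 2475 CPM, with 5 called higher and 1 lower, and their RNA sums overlapped as well. The 9 striatum markers summed to 1267 to 1309 CPM and 1415 to 1474 CPM of footprints, with 5 called higher and 1 lower. The 10 markers of oligodendrocytes and precursors summed to 8600.3 to 8763 CPM and 8328 to 8388 CPM of footprints, with 6 called lower and 1 higher, and to 5108 to 5558 CPM and 4474 to 4796 CPM of RNA. None of these markers was at 0 in all footprint libraries, and their part in the results of Grin2d and the other subunits was not tested.

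Grin2a encodes GluN2A, the fast subunit of mature cortical synapses. Footprints of Grin2a lay at 70.3, 68.3 and 71.1 CPM in control mice 1, 3 and 9 and at 65.0, 67.0 and 61.0 CPM in KO mice 2, 4 and 10, from 274 to 403 counts per library. KO libraries were below control libraries by a small margin. The difference of -0.12 ± 0.072 on the log2 scale (SE; edgeR adjusted p = 0.223) did not pass the test under any of the 13 alternatives. Grin2a RNA ranged from 193 to 208 CPM in the control group and from 200.3 to 226 CPM in the KO group, 0.063 ± 0.055 on the log2 scale (SE; edgeR adjusted p = 0.534).

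Grin2c encodes GluN2C, a subunit best known from cerebellar granule cells and also described in astrocytes and thalamus. Its footprints were at 20.5, 20.4 and 18.6 CPM in control mice 1, 3 and 9 and at 17.8, 17.0 and 16.5 CPM in KO mice 2, 4 and 10, from 75 to 120 counts per library. The genotypes did not overlap, and the difference was not called (log2 fold change -0.21 ± 0.13, SE; adjusted p = 0.266, edgeR). Its RNA ranged from 61.3 to 83.0 CPM in the control group and from 68.0 to 73.8 CPM in the KO group, with a difference of 0.018 ± 0.082 on the log2 scale (SE; edgeR adjusted p = 0.922). Control mouse 8 held the highest RNA value. The 8 cerebellum markers summed to 433 to 454 CPM of footprints (control) and 397 to 419 CPM (KO) without overlap, and 3 of the 5 tested, Fat2, Zic2 and Calb1, were called lower, against 13.7% of all genes. In RNA their sums overlapped, at 177 to 201 CPM and 170.3 to 203 CPM. Most of the sum was Calb1, at 389 CPM of footprints in controls and 361 CPM in KO mice, a gene that cortical neurons also express. Of these markers, Gabra6 was at 0 in all 8 RNA libraries and Pcp2 in all 6 footprint libraries. Astrocyte markers summed to 6484 to 6569 CPM of footprints (control) and 6433 to 6470 CPM (KO) without overlap. Of these 10 markers 3 were called lower and 1 higher in footprints, and 2, Gfap and Aqp4, were called lower in RNA, against 3.93% of all genes. The RNA sums of the astrocyte markers overlapped, at 3875 to 4337 CPM (control) and 4042 to 4847 CPM (KO). The part of either marker list in the Grin2c values was not tested.

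Grin3b, the remaining NMDA receptor gene and no member of the set, had 0 to 7 RNA counts and 0 to 2 footprint counts per library and was not tested.

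**Figure D2:**
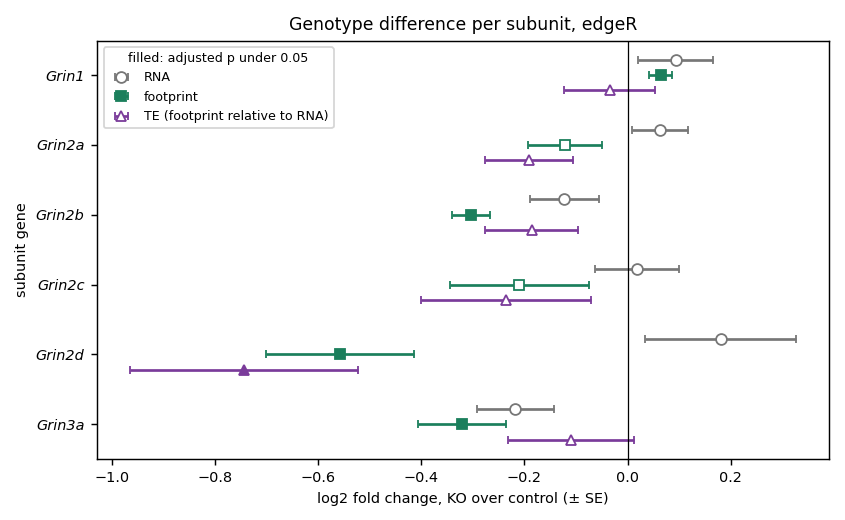
Log2 fold changes of KO over control mice are shown for each subunit in RNA (circles), footprints (squares) and TE (triangles), with bars for ± 1 SE and filled symbols for an adjusted p-value under 0.05. Filled footprint symbols mark Grin2b, Grin2d and Grin3a below 0 and Grin1 above it, and Grin2d has the only filled TE symbol, at -0.74.

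Set against Grin1 within the same library, which needs no scaling between libraries, the footprints of all 5 other subunits were lower in KO mice with no overlap, as were 25.6% of the 12157 other genes tested. Grin1 was itself called higher in KO footprints, which lowers each ratio to it. Grin2b had 26.1 ± 0.504 footprint counts per 100 Grin1 counts in controls and 20.3 ± 0.502 in KO mice (SD, n = 3 each). For Grin3a the ratio was 3.78 ± 0.139 in controls and 2.89 ± 0.134 in KO mice, and for Grin2d it was 1.45 ± 0.134 and 0.944 ± 0.115 (SD, n = 3 each). Both separated by several times their spread. Grin2a had 5.10 ± 0.218 and 4.48 ± 0.163 counts per 100 Grin1 counts, and Grin2c had 1.45 ± 0.0897 and 1.19 ± 0.0493 (SD, n = 3 each). Each of these 5 comparisons gave p = 0.1 in an exact two-sided permutation test, the smallest that 3 against 3 libraries allow, and 0.133 after Benjamini-Hochberg adjustment over 12 such ratios and shares.

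In RNA the same ratios overlapped for Grin2a, Grin2c and Grin2d. Grin2b had 112 ± 11.05 RNA counts per 100 Grin1 counts in controls and 96.7 ± 3.49 in KO mice, and Grin3a had 20.6 ± 2.78 and 16.7 ± 1.24 (SD, n = 4 each). These 2 did not overlap between genotypes, and 11.8% of the 13506 other genes tested were lower against Grin1 in this way (two-sided exact permutation p = 0.0286 each, the lowest for 4 against 4, 0.133 after adjustment). Grin1 made up 72.3% to 72.7% of the footprint counts summed over the 6 subunits in controls and 76.6% to 77.4% in KO mice. In RNA it made up 33.1% to 36.5% and 36.7% to 39.4%. The footprints of the other 5 subunits summed to 511 to 534 CPM (control) and 414 to 446 CPM (KO), without overlap. Most of this sum was Grin2b, whose mean was 359 CPM (control) against 291 CPM (KO), so the sum largely repeats the Grin2b result. Among single genes, 19.2% of those tested in footprints were lower without overlap.

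**Figure D3:**
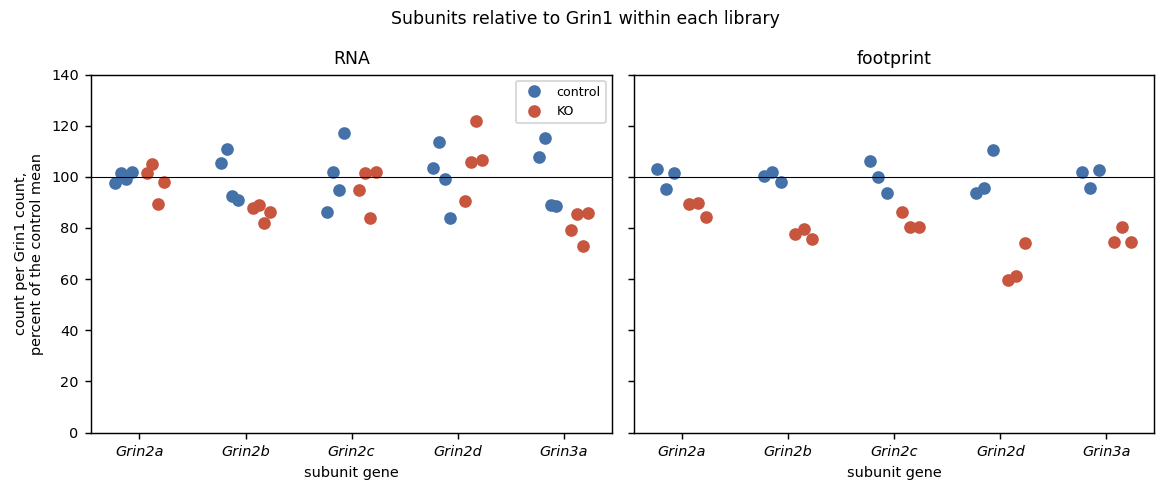
For each library, the count of a subunit divided by the Grin1 count is drawn as a percent of the control mean (linear axis from 0), in RNA (4 and 4 libraries) and in footprints (3 and 3). All footprint points of KO mice lie below those of control mice, whereas the RNA points of Grin2a, Grin2c and Grin2d are mixed.

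The balance of Grin2a and Grin2b was read as the share of Grin2a in their summed counts, in which the difference in gene length is the same in all libraries. In footprints Grin2a took 16.3% ± 0.785 in controls and 18.1% ± 0.292 in KO mice (SD, n = 3 each; two-sided exact permutation p = 0.1, the lowest possible). In RNA it took 25.2% ± 1.91 and 27.6% ± 0.671 (SD, n = 4 each; exact two-sided permutation test, p = 0.0571). The RNA groups overlapped, and the footprint groups did not. Adjusted over the 12 ratios and shares, both had p = 0.133 (exact permutation).

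TE compares footprints with RNA of the same gene. Grin2d was the only subunit called in TE, at -0.74 ± 0.22 on the log2 scale (SE; edgeR adjusted p = 0.0425), where 7.44% of the 12145 genes tested were called, 4.22% as lower and 3.22% as higher. Of the 20 alternatives that gave it an adjusted p-value, 6 kept this call. It was lost with the mouse number as a replicate block (-0.48 ± 0.23, SE; adjusted p = 0.160, edgeR), with only mice 1 to 4 (0.158), with the title prefix as a block (0.0671), on plain library sizes (0.0573) and with RNA of KO mice 2, 4 and 7 summed (0.0532) and with that of control mice 1 and 3 summed as well (0.0604). Removing mouse 1 (adjusted p = 0.0569, edgeR), 2 (0.0912), 3 (0.0757), 4 (0.118), 6 (0.0633), 7 (0.0563), 9 (0.120) or 10 (0.0562) ended it too. The size of the difference was -0.48 with the block and -0.49 in mice 1 to 4, and between -0.84 and -0.66 in the other fits that lost the call.

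The other 5 subunits also had TE values below 0 without a call, at -0.24 ± 0.16 for Grin2c, -0.19 ± 0.086 for Grin2a, -0.19 ± 0.090 for Grin2b, -0.11 ± 0.12 for Grin3a and -0.035 ± 0.088 for Grin1 (SE; adjusted p = 0.433, 0.189, 0.227, 0.648 and 0.860, edgeR). The median over the family was -0.19, against -0.011 over all genes. With the mouse as a block, Grin3a turned to 0.12 and Grin1 to 0.028, and Grin2b shrank to -0.045 (-0.048 in mice 1 to 4 alone).

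**Figure D4:**
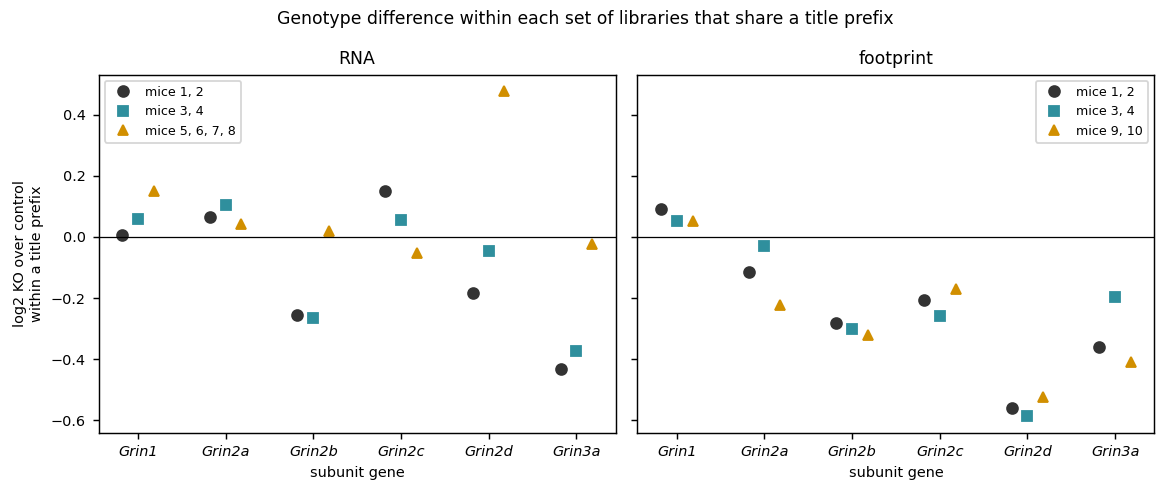
The log2 ratio of KO over control mean CPM is shown for libraries whose titles open with the same prefix, with 1 library per genotype at each point except mice 5 to 8, which hold 2 per genotype. The 3 footprint pairs lie on the same side of 0 for each subunit, as follows from footprint libraries that do not overlap. RNA of Grin2b and Grin3a lies well below 0 in mice 1 to 4 and near 0 in mice 5 to 8.

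Sets of libraries that share a title prefix were therefore compared one by one; the labels do not say what the prefix stands for. In footprints Grin2b had log2 ratios of -0.28 in mice 1 and 2, -0.30 in mice 3 and 4 and -0.32 in mice 9 and 10. Grin2d had -0.56, -0.59 and -0.52, and Grin3a had -0.36, -0.20 and -0.41 in the same order. The sign in each footprint pair of these 3 genes follows from their libraries not overlapping, so only the sizes add to that result. In RNA Grin2b had -0.26 in mice 1 and 2, -0.26 in mice 3 and 4 and 0.020 in mice 5 to 8, and Grin3a had -0.43, -0.37 and -0.022. Grin2d RNA was at -0.18, -0.046 and 0.48. In mice 1 to 4, the animals with both assays, the difference between footprints and RNA was called for none of these 3 genes (TE adjusted p = 0.666 for Grin2b, 0.158 for Grin2d and 0.596 for Grin3a, edgeR).

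The number of footprints per RNA also differed widely between the subunits, in both genotypes. The footprint CPM of each gene was divided by its RNA CPM in the same mouse and set against the median gene of that mouse. Length cancels in this ratio if both assays were counted over the same region, which the sources used here do not state. Grin1 lay at 2.69 and 3.10 times the median gene in control mice 1 and 3 and at 2.84 and 3.04 times in KO mice 2 and 4. Between 95.9% and 97.8% of the 12145 genes had a lower ratio than Grin1 in these mice. Grin2d was also above the median, at 1.66 and 1.77 times in the control mice and 1.27 and 1.20 times in the KO mice.

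The remaining subunits were below the median gene. In the control mice Grin2b lay at 0.595 and 0.661 times the median gene, Grin3a at 0.467 and 0.472 times, Grin2a at 0.386 and 0.394 times and Grin2c at 0.369 and 0.338 times. The order from Grin1 through Grin2d, Grin2b and Grin3a to Grin2a and Grin2c was the same in KO mice, and Grin2a and Grin2c were close neighbours in controls. This order depends on the RNA column. In the exon columns of control mice 1 and 3, Grin3a had 33.4 and 38.2 RNA counts per 100 Grin1 counts. Grin2a had 30.6 and 32.2. With fewer footprints than Grin2a, Grin3a thus lay below it there. In KO mice 2 and 4 Grin2a lay lower than in controls, at 0.340 and 0.354 times the median gene, as did Grin2c, at 0.287 and 0.268 times. Grin3a lay higher, at 0.489 and 0.525 times, and Grin2b overlapped. With 2 mice per genotype these ratios were not tested. Grin1, the common subunit, thus had 7.40 times the footprints per RNA of Grin2a in controls and 8.47 times in KO mice, as ratios of geometric means over 2 mice each. For Grin2b these ratios were 4.60 and 4.83.

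**Figure D5:**
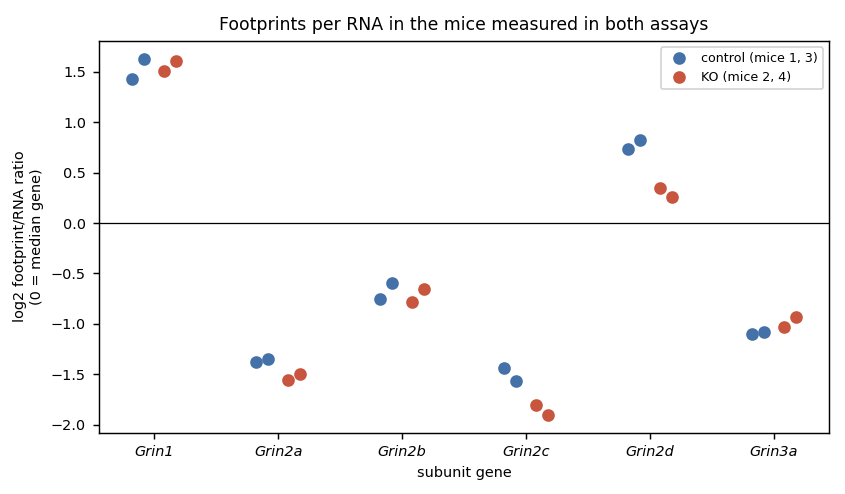
Points show the log2 ratio of footprint to RNA CPM for each subunit in the 4 mice measured in both assays, with 0 at the median gene of each mouse. Grin1 and Grin2d lie above 0 and the other 4 subunits below it. The KO points of Grin2a, Grin2c and Grin2d are below their control points, and those of Grin3a are above.

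The 2 RNA columns of a library held different counts for most subunits; the region behind either is not given in the sources used here. The columns without a suffix held 65.6% of the exon column in the median gene. They held 83.4% ± 0.683 for Grin1, 65.8% ± 1.72 for Grin2b, 84.7% ± 1.17 for Grin2c, 90.7% ± 1.57 for Grin2d and 52.3% ± 2.30 for Grin3a in controls (SD, n = 4). For Grin2a both columns held the same counts in 7 of the 8 libraries and differed by 1 count in the remaining one, a share of 99.9% or more that 2.05% of genes reached. Mean shares in KO mice were within 3 percentage points of these values, and exact two-sided permutation p-values lay between 0.114 and 1.

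Genes that work with NMDA receptors were taken from 5 lists. Their counts stand against the shares over all genes tested, which were 13.7% lower and 12% higher in footprints, 3.93% and 3.58% in RNA and 4.22% and 3.22% in TE, and against all-gene medians of 0.0060, -0.0010 and -0.011. The RNA calls depend on which libraries are used: calls over all genes went from 1014 to 85 with KO mice 2, 4 and 7 summed. With control mice 1 and 3, a pair at 1.99 that is not classed as nearly identical, summed as well, 36 were left. Summing also leaves fewer libraries. Leaving out 1 mouse gave 372 to 1791 calls, with 372 to 401 without KO mouse 2, 4 or 7. The effect of near identity apart from that of fewer libraries was not tested. Of 19 scaffold genes, which anchor receptors in the postsynaptic density, 9 fell and 3 rose in footprints, with a median log2 fold change of -0.073 against 0.0060 over all genes. Shank2 fell by 0.61 ± 0.063 and Shank1 by 0.40 ± 0.060 (SE, adjusted p = 3.84e-14 and 5.53e-08, edgeR), and both are master scaffolds. The small adaptors Lin7b and Lin7a rose by 0.33 ± 0.069 and 0.27 ± 0.079 (SE, adjusted p = 7.95e-05 and 0.00662, edgeR). In RNA 2 scaffold genes rose, Shank1 (0.36 ± 0.061) and Dlg3 (0.26 ± 0.060), and 1 fell, Lin7c (-0.32 ± 0.093; SE, adjusted p = 0.00352, 0.0201 and 0.0478, edgeR). In TE 5 of the 19 fell, led by Shank1 (-0.76 ± 0.092) and Shank2 (-0.67 ± 0.099; SE, adjusted p = 2.64e-05 and 0.000187, edgeR).

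Among calcium effectors, enzymes and exchange factors that respond to calcium entry, 20 of 21 genes were tested. In footprints 8 fell and 5 rose, where 25.7% of all genes were called. Tiam1, a Rac activator, fell by 0.36 ± 0.056 and Camk2d by 0.34 ± 0.042, while the calcineurin subunits Ppp3r1 and Ppp3cb rose by 0.31 ± 0.025 and 0.21 ± 0.033 (SE, adjusted p = 1.24e-07, 1.62e-10, 1.83e-19 and 1.26e-07, edgeR). In RNA 2 rose and 3 fell. Camk2a, which encodes the kinase subunit that docks on GluN2B, rose in RNA by 0.75 ± 0.099 and fell in TE by 0.90 ± 0.12, the only TE call of the list (SE, adjusted p = 0.000739 and 7.19e-05, edgeR). Ppp3r1 RNA rose by 0.37 ± 0.062, and Calm2 and Tiam1 RNA fell by 0.34 ± 0.050 and 0.24 ± 0.063 (SE, adjusted p = 0.00323, 0.00165 and 0.0318, edgeR). The median footprint log2 fold change of the list was -0.019.

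Of the kinases and phosphatases that act on the receptors, 18 were tested in footprints, where 8 rose and 4 fell (25.7% of all genes were called), with a median of 0.095 against 0.0060 over all genes. Csnk2b, the regulatory subunit of casein kinase 2, rose by 0.39 ± 0.044 and Ppp1ca by 0.33 ± 0.039, whereas the anchoring protein Akap5 fell by 0.40 ± 0.047 and the tyrosine kinase Fyn by 0.25 ± 0.057 (SE, adjusted p = 3.46e-12, 2.73e-11, 1.41e-11 and 0.000330, edgeR). In RNA 2 of 19 were called, near the 7.51% of all genes: Prkaca rose by 0.23 ± 0.054 and Akap5 fell by 0.25 ± 0.058 (SE, adjusted p = 0.0203 and 0.0206, edgeR). In TE 3 genes rose and none fell, among them Csnk2b (0.43 ± 0.11) and Ppp1ca (0.27 ± 0.080; SE, adjusted p = 0.0232 and 0.0422, edgeR).

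Of 21 trafficking genes and receptor partners, 3 rose and 3 fell in footprints, 3 rose and 1 fell in RNA, and 3 fell in TE. The 6 of 21 called in footprints are close to the 25.7% of all genes. Reln, the extracellular protein reelin that acts on NMDA receptors through lipoprotein receptors, fell in footprints by 0.57 ± 0.036 and in RNA by 0.31 ± 0.073 (SE, adjusted p = 1.61e-25 and 0.0203, edgeR). Kif17, the motor reported to carry GluN2B along dendrites, rose in RNA by 0.31 ± 0.078 and fell in TE by 0.53 ± 0.15 (SE, adjusted p = 0.0280 and 0.0343, edgeR). Iqsec2 fell in footprints by 0.31 ± 0.054 and in TE by 0.48 ± 0.092 (SE, adjusted p = 2.79e-06 and 0.00213, edgeR). Drd1 and Vps35 footprints rose by 0.26 ± 0.095 and 0.12 ± 0.032 (SE, adjusted p = 0.0342 and 0.00216, edgeR).

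Among genes of co-agonist and glutamate supply, of 19 tested 3 rose and 2 fell in footprints, 1 rose in RNA and none was called in TE. These counts are near the 25.7% of all genes called in footprints and the 7.51% called in RNA. In TE 4 of the 19 had an unadjusted p-value under 0.05 (edgeR), as had 22.4% of all genes. Glul, which makes glutamine, and Slc17a7, the vesicular glutamate transporter, rose in footprints by 0.15 ± 0.025 and 0.078 ± 0.024 (SE, adjusted p = 5.53e-07 and 0.0104, edgeR). Shmt2 and the glycine transporter gene Slc6a9 fell by 0.40 ± 0.10 and 0.22 ± 0.076 (SE, adjusted p = 0.00124 and 0.0205, edgeR). Slc17a7 RNA rose by 0.20 ± 0.053 (SE, adjusted p = 0.0366, edgeR).

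Genes whose RNA followed a subunit most closely were sought among the 10025 genes whose RNA averaged 10 CPM or more, by Pearson's r of log2(CPM + 1) over the 8 RNA libraries. The libraries share genotype, depth and preparation, and the candidates are many, so the names are a description only. Nearest to Grin1 were A730017C20Rik, Cacna2d3 and Nrxn2 (r = 0.988, 0.977 and 0.976). For Grin2a they were Tmem132d, Pcdh7 and Arsb (r = 0.988, 0.985 and 0.972), and for Grin2b Tenm1, Slit2 and Map2k1 (r = 0.981, 0.980 and 0.977). Nearest to Grin2c were Rxra, Timp4 and Apopt1 (r = 0.978, 0.973 and 0.970), to Grin2d Sgpl1, Pdia3 and Pitpnb (r = 0.981, 0.967 and 0.961), and to Grin3a Eef1d, Cct3 and Acat1 (r = 0.984, 0.978 and 0.978).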

How the data were processed

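The authors deposited one table of raw counts per gene, and the counts carry no normalization. Per the submitters' processing notes, the tools were Bowtie2, STAR 2.5, featureCounts and Subread 1.4.6 and the builds mm9 and mm10, with no role or order given. The annotation, the strand setting and the region counted are not given in the sources used here. RNA libraries have 2 columns each, a plain one and an exon one. The plain column was used, since the same 2849 of 23412 genes lack a value there and in the footprints. Library totals ranged from 8847547 to 11371851 counts (RNA), from 4124065 to 6033030 (footprints) and from 16351772 to 20793293 (exon columns).

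Counts were tested over the whole table with edgeR 4.0.16 (R 4.3.3) by its quasi-likelihood F test, with TMM scaling and edgeR's filterByExpr (minimum count 10). Translational efficiency (TE) was tested as the interaction of genotype and assay over all 14 libraries. Tests were two-sided. Benjamini-Hochberg adjustment ran over the whole set of tested genes, and an adjusted p-value under 0.05 is a call. Standard errors were derived from the F statistic. DESeq2 1.42.0, limma 3.58.1 (voom), plain library sizes, no filter, a title-prefix block, the exon columns, summed libraries and the removal of each mouse served as alternatives. The scripts were tested on simulated data. Mice 1 to 4 carry the same number in both assays, so the labels pair those libraries by animal. Deviations from the group means correlated between the assays of one mouse at r = -0.0052 to 0.046 over 8918 genes.

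The members and gene lists were chosen with earlier results of these data known. Named from the lists of NMDA receptor partners were up to 2 rises and 2 falls per assay among called genes averaging 10 CPM or more, and 3 nearest genes per member by Pearson's r. The lists of other glutamate receptors were added after the data were seen. Drd1 was read under its older symbol. A few genes of the lists are not reported here by name. RefSeq (GRCm38.p6) was used for symbols and overlapping genes.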

Additional observations from a re-analysis of the deposited data

Results flagged for a closer look

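In the RNA groups of 4 mice, 35 sets of member values were searched for a library far from the rest, by Dixon's test at the 95% level on the gap as a share of the range. Found were 3, and chance flags about 1 in 20 sets. Grin1 RNA was at 675 CPM in KO mouse 5, against 526 to 551 CPM in the other KO mice. The column without a suffix held 85.4% of the Grin1 exon counts in the same mouse, against 82.4% to 82.8% in the other KO mice. For Grin2a it held 99.9% in control mouse 1 and 100% in the other controls, a difference of 1 count. The other 3 controls were equal, so any difference would have been found there, and this one is no sign of a distant library.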

How the results depend on the processing

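The count of subunits called in footprints was 3 to 4 when each mouse was left out. In RNA it was 0 to 1 when each mouse was left out, 1 in the exon columns and 2 in mice 1 to 4 alone. In TE it was 0 to 1 when each mouse was left out. It was 0 in TE on plain library sizes, with the title prefix as a block, with RNA of KO mice 2, 4 and 7 summed, with that of control mice 1 and 3 summed as well, with only mice 1 to 4 and with the mouse number as a replicate block. With DESeq2, Grin2d had no adjusted p-value in TE. Directions turned only where no call was made. Grin1 in TE was at 0.032 on plain library sizes, 0.028 with the replicate block, 0.035 with voom, 0.026 in mice 1 to 4 and -0.086 to 0.055 when each mouse was left out. Grin3a in TE was at 0.12 with the replicate block and 0.11 in mice 1 to 4. In RNA, Grin2b was at 0.020 and Grin2c at -0.054 in mice 5 to 8, Grin2d at -0.10 in mice 1 to 4, and Grin2c at -0.038 to 0.12 when each mouse was left out. The causes were not tested. Calls over the whole table ran from 36, with both sums, to 3284, in mice 1 to 4, in RNA (main 1014), 1532 to 3438 in footprints (3123) and 376 to 1903 in TE (904), with 1834 under the replicate block. The balance of falls and rises in TE turned with the scaling: 513 of 904 calls were lower in the main fit and 325 of 992 on plain library sizes. Footprint counts were lowest for Grin2d, at 52 to 124 per library, and Grin2c, at 75 to 120.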

Other observations

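The AMPA and kainate receptor genes were chosen after the data were seen. In footprints, of the 4 AMPA receptor genes, Gria1 and Gria2 fell by 0.13 ± 0.034 and 0.067 ± 0.024 on the log2 scale (SE, adjusted p = 0.00244 and 0.0292, edgeR), and Gria3 and Gria4 were at 0.035 and 0.060. Of all genes tested in footprints, 25.7% were called and 13.7% were called lower. None of the 5 kainate receptor genes was called in footprints by edgeR, and 0 had an unadjusted p-value under 0.05. They lay between -0.30 for Grik1 and 0.11 for Grik4. Grik5 rose in RNA by 0.35 ± 0.063 and fell in TE by 0.48 ± 0.10 (SE, adjusted p = 0.00538 and 0.00478, edgeR). The difference between these families and the NMDA receptor genes was not tested.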
